A study of Mus musculus with 6 samples.

Results

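The SOCS family and the PIM kinases were followed through bulk RNA-seq of mouse cells labelled as regulatory T (Treg) cells. The members were 10 genes, taken by symbol from the 32377 gene identifiers of the count table: Cish, Socs1, Socs2, Socs3, Socs5, Socs6, Socs7, Pim1, Pim2 and Pim3. All 10 were found and all 10 passed the filter on low counts. The libraries formed 2 groups of 3, one labelled TNFR2-deficient Treg and one labelled TNFR2 positive Treg. TNFR2, which binds tumour necrosis factor, is known to favour the expansion and function of Treg cells. The design contrasts cells labelled deficient in it with cells labelled positive for it. The labels give no strain, age, tissue, sorting strategy or allele, and do not say whether the libraries came from separate animals. The p-values therefore reflect variation among the 6 libraries only, and this variation could be technical.

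Cytokine receptors signal through JAK kinases, which phosphorylate STAT transcription factors. STAT5, activated by IL-2, maintains Treg cells. CIS (the product of Cish) and the SOCS proteins are feedback inhibitors of this pathway. Each has an SH2 domain that binds phosphotyrosine and a SOCS box that recruits elongins and cullin 5 to mark bound proteins for degradation. SOCS1 and SOCS3 also carry a short region that blocks the JAK kinase itself, and SOCS1 is known to restrain cytokine signals in developing thymocytes. The PIM proteins are serine/threonine kinases of cell growth and survival that need no activating phosphorylation, so their amount largely sets their activity. Many genes of both families are themselves induced by STATs.

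Cish, Socs1 and Socs3 are shown by their promoters because they differed most in direction and size among the members with an entry in the RefSeq promoter table. The windows run from 250 bases before to 50 after the annotated start, in build GRCm38.p6, and capitals mark matches to TTCNNNGAA, the palindromic core of STAT5 sites. The Cish window lies at chr9:107296409-107296708 on the + strand, the Socs1 window at chr16:10785487-10785786 on the - strand and the Socs3 window at chr11:117969317-117969616 on the - strand.
Cish: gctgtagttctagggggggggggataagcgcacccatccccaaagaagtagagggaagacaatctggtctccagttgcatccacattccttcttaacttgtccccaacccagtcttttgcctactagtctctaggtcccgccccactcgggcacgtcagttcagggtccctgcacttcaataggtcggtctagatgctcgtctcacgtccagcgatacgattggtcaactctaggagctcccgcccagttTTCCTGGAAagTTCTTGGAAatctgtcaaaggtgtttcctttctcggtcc
Socs1: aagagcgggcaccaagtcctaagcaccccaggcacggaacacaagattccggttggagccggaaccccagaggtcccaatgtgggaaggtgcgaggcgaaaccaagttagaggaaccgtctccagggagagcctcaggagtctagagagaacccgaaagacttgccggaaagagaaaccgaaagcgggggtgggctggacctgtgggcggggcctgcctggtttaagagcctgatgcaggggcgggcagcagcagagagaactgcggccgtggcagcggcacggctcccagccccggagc
Socs3: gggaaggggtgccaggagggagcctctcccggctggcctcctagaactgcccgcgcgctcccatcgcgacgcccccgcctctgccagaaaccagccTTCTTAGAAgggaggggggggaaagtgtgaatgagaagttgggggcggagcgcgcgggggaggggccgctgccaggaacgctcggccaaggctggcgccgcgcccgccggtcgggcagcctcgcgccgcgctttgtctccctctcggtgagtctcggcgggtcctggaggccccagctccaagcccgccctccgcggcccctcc

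The Cish window held 2 matches to TTCNNNGAA, starting at positions 1 and 12 counted from the annotated start, with the sequences TTCCTGGAA and TTCTTGGAA. Over the 32851 promoter windows of the table, 8.3% held at least 1 match and 0.457% held 2 or more. The Socs3 window held 1 match, TTCTTAGAA, starting at position -154. No match lay in the windows of Socs1, Pim1 (which has 2 windows), Pim2 or Pim3. The 10-base NF-kB consensus, searched on both strands and found in 8.46% of windows, had 1 match among the members, GGAAGGCCCC at position -136 of Pim3, and none overlapped a TTCNNNGAA match. These matches describe the letters of each window and not a measured binding site. Socs2, Socs5, Socs6 and Socs7 are named only.

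Total counts ran from 19296082 to 24038118 per library, so that 3 counts corresponded to 0.125 to 0.155 CPM, the count relative to the library total. Tnfrsf1b, the gene of TNFR2, had 7.32 to 8.30 CPM in the TNFR2-deficient and 80.2 to 84.6 CPM in the TNFR2-positive libraries, the direction of the labels. The defining markers of Treg cells were lower in the TNFR2-deficient libraries. Foxp3 had 1.44 ± 0.0974 CPM there (SD, n = 3) against 75.5 ± 2.14 CPM, while Ikzf2 and Il2ra were still at 14.97 ± 1.87 and 6.87 ± 0.865 CPM. All 9 Treg markers fell, with a summed level of 32.2 to 38.7 against 568 to 615 CPM of the library total. All 10 markers of double-positive thymocytes were higher, at 3550 to 3700 against 386 to 400 CPM, with Rag2 and Ptcra at or near 0 in the TNFR2-positive libraries (0.193 and 0.0171 CPM). Of 7 general T cell markers 6 rose and 1 fell, with a summed level of 1550 to 1610 against 748 to 802 CPM. B cell markers were abundant in both groups, with 4 of 6 tested higher and 1 lower (6450 to 6690 against 5000 to 5320 CPM), and all 7 erythroid markers rose, at 17900 to 20300 against 4180 to 7050 CPM. All 7 markers of NK and cytotoxic T cells were lower, at 51.5 to 53.8 against 154 to 169 CPM, 3 of 8 myeloid markers rose and 2 fell (633 to 665 against 484 to 539 CPM), and 4 platelet markers rose (13.6 to 15.8 against 4.58 to 5.19 CPM). These marker counts are calls at an edgeR adjusted p below 0.05. Of all tested genes 35.1% were called higher and 34.2% lower. Of thymic epithelial markers only Epcam was abundant enough to test, and Foxn1 had 1 count in all libraries together. TNFR2-positive library 1 stood apart from its replicates, with a chi-square per gene of 15.6 and 20.8 against 2.59 between the other two. The calls of all members were the same without it. In bulk RNA, fewer cells of a type and less RNA per cell cannot be told apart. The part of these cell types in the results for the members was not tested.

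The members moved in different directions. In the TNFR2-deficient libraries Cish and Socs2 were lower by 17.4-fold and 9.18-fold, Socs3, Socs7 and Pim1 were lower by 2.22-fold, 2.01-fold and 1.61-fold, Socs5 was lower by less, and Socs1 was 3.47-fold higher. Socs6, Pim2 and Pim3 did not pass the test. Thus 6 members fell and 1 rose at a Benjamini-Hochberg adjusted p below 0.05 in edgeR's quasi-likelihood test over 17022 genes. The share of all tested genes called was 69.3%, with 34.2% lower and 35.1% higher, so 7 calls among 10 members is near the background. The ranges of the groups did not overlap for the 7 called members, beside 74.5% of all tested genes. The median log2 fold change (log2FC) was -0.56 over the members and 0.04 over all genes.

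**Figure D1:**
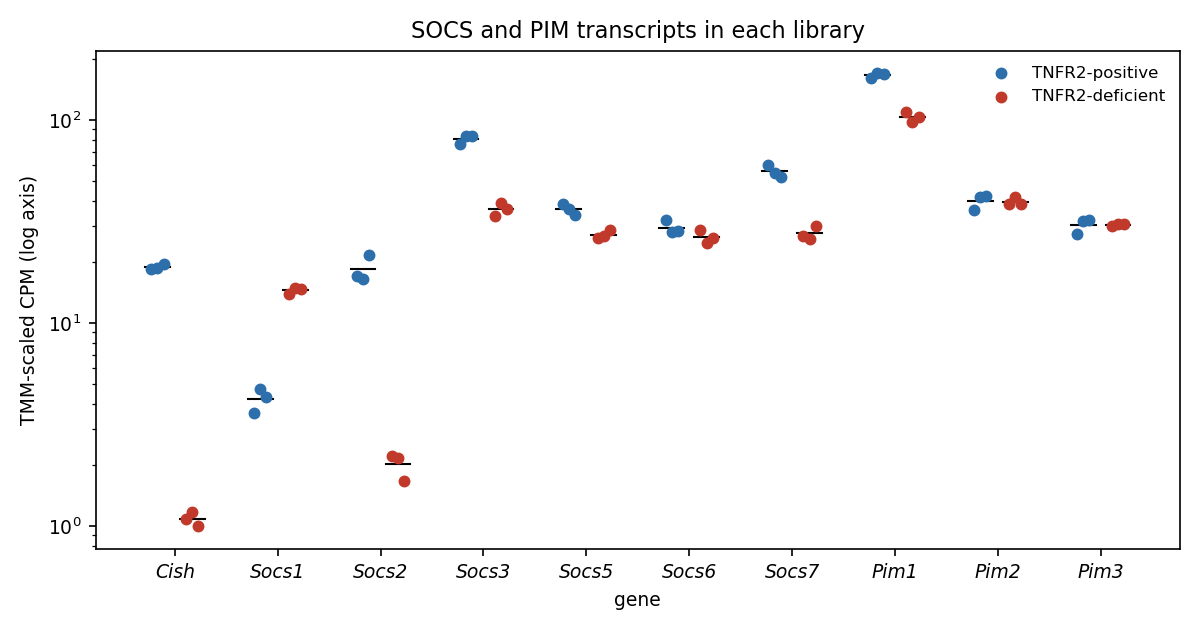
Level of each member in each library, in TMM-scaled CPM on a log axis, with TNFR2-positive libraries in blue, TNFR2-deficient libraries in red and black bars at the group means. Cish and Socs2 sit near 1 and 2 CPM in the TNFR2-deficient libraries and near 19 and 18 CPM in the TNFR2-positive ones, Socs1 is the one member with all red points above the blue, and the points of Socs6, Pim2 and Pim3 overlap.

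Cish, which encodes the STAT5-induced inhibitor CIS, had 1.08, 1.17 and 0.998 CPM in TNFR2-deficient libraries 1 to 3 and 18.5, 18.7 and 19.5 CPM in TNFR2-positive libraries 1 to 3. The libraries within each group were close, and every TNFR2-deficient value lay far under the lowest TNFR2-positive one. The low levels rested on 25, 26 and 24 counts, well above 3 counts. The log2FC was -4.12 (SE 0.126, edgeR adjusted p = 2.35e-10), larger in size than that of 98% of tested genes.

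Socs2, whose product limits growth hormone and other STAT5 signals and which is among the transcripts typical of Treg cells, had 2.21, 2.17 and 1.66 CPM against 17.1, 16.6 and 21.7 CPM. TNFR2-positive library 3 was the highest of its group, and the groups were far apart (log2FC = -3.20, SE 0.155, edgeR adjusted p = 1.11e-08). Socs3, the inhibitor that acts on receptors of the gp130 type, had 33.8, 39.3 and 36.6 CPM against 76.3, 83.3 and 83.4 CPM. All TNFR2-deficient values were thus below all others, by a smaller factor than for Cish or Socs2 (log2FC = -1.15, SE 0.0715, edgeR adjusted p = 9.48e-08).

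Socs1, the main inhibitor of interferon-gamma and common gamma chain signals, had 14.0, 14.9 and 14.7 CPM in the TNFR2-deficient libraries, each well above the 3.60, 4.71 and 4.31 CPM of the TNFR2-positive group. It was the one member of the 10 that rose (log2FC = 1.80, SE 0.118, edgeR adjusted p = 1.46e-07). Its increase was larger in size than the change of 90% of the tested genes. Socs1 and Socs3, the members with the JAK-blocking region, therefore differed from each other in direction.

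The members with long N-terminal parts changed less. Socs7, whose product binds signalling adaptors, had 26.9, 26.1 and 30.2 CPM against 60.0, 55.2 and 52.6 CPM (log2FC = -1.01, SE 0.077, edgeR adjusted p = 4.92e-07). Socs5 had 26.1, 26.8 and 28.7 CPM against 38.8, 36.7 and 34.1 CPM, with no overlap (log2FC = -0.43, SE 0.0723, edgeR adjusted p = 0.000236). Socs6 had 28.8, 24.7 and 26.2 CPM against 32.4, 28.0 and 28.3 CPM. Its highest TNFR2-deficient library lay above 2 of the 3 TNFR2-positive ones, and it did not pass (log2FC = -0.15, 95% interval -0.33 to 0.03, edgeR adjusted p = 0.119).

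Longer genes were lower in the TNFR2-deficient libraries across all genes (Spearman's rho of -0.298 between log2FC and exonic length, a description over genes). The median log2FC was 0.308 in the fifth of genes with the shortest exonic length and -0.457 in the fifth with the longest. Socs6 has the longest exonic length of the members, 11349 bases, against 2427 bases for Pim3. With each library's relation to exonic length removed by splines, Socs6 was called higher (log2FC = 0.34, 95% interval 0.19 to 0.48, edgeR adjusted p = 0.000395), so the direction of Socs6 turns with this setting. Socs5 remained lower at a log2FC of -0.20 (edgeR adjusted p = 0.0125) and Socs7 at -0.72. Cish, Socs1, Socs2 and Socs3 had log2FC of -3.90, 1.70, -2.79 and -1.25 under the same setting. Socs4, the SOCS family gene that is no member, was at 91.9, 86.6 and 88.4 CPM against 128.9, 97.4 and 103.0 CPM. Its call as lower (log2FC = -0.30, edgeR adjusted p = 0.0114) was lost with the relation to length removed (log2FC = -0.04, edgeR adjusted p = 0.607). TNFR2-positive library 1 was the highest, and without it the log2FC of Socs4 was -0.18 (edgeR adjusted p = 0.00558).

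**Figure D2:**
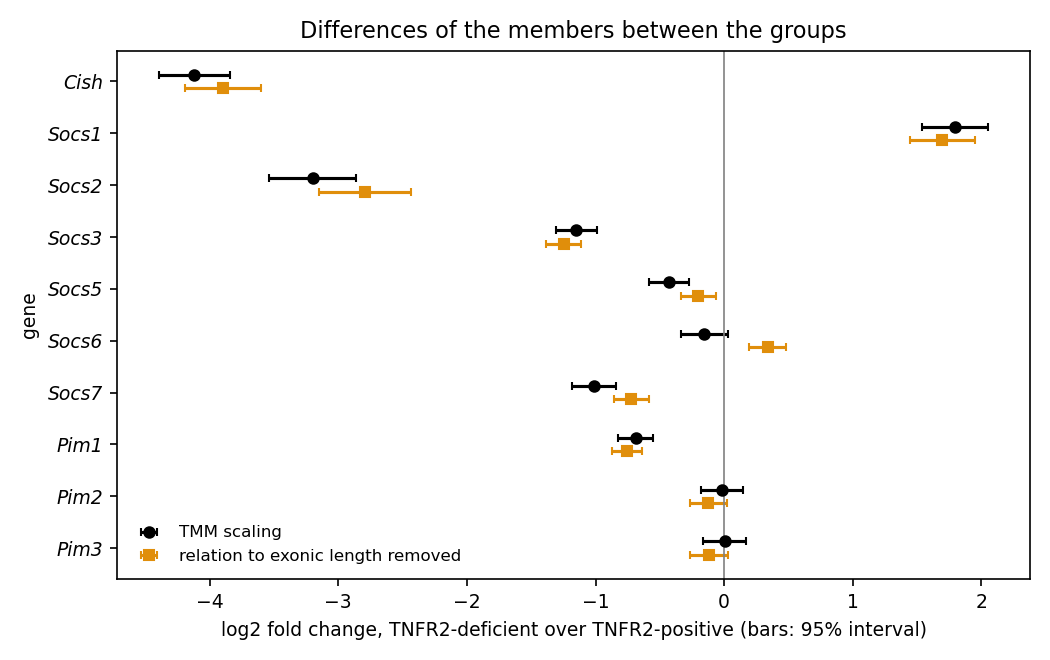
Log2 fold change of each member, TNFR2-deficient over TNFR2-positive, with TMM scaling (black circles) and with the relation to exonic length removed (orange squares), with 95% intervals from the edgeR standard error. Cish and Socs2 lie far to the left and Socs1 to the right under both settings, and Socs6 moves from -0.15 to 0.34.

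Among the PIM kinases only Pim1 passed the test. Pim1, a classic target of cytokines that activate STATs, had 109.5, 97.4 and 103.8 CPM against 161.6, 170.0 and 169.2 CPM (log2FC = -0.69, SE 0.0625, edgeR adjusted p = 1.93e-06). Each TNFR2-deficient library was below each TNFR2-positive one. Pim2, which sustains growth and survival of lymphocytes, had 38.4, 41.7 and 38.7 CPM against 36.3, 41.6 and 42.5 CPM. Pim3 had 30.2, 30.6 and 30.6 CPM against 27.4, 32.0 and 32.1 CPM. In both genes TNFR2-positive library 1 was the lowest of all 6 libraries and the other values were mixed. Their log2FC were -0.02 (95% interval -0.18 to 0.15) and 0.00286 (95% interval -0.16 to 0.17), with edgeR adjusted p of 0.848 and 0.975. These intervals leave room for a small change in either direction.

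Levels of different genes were compared as CPM per kilobase of exonic length. In the TNFR2-positive libraries the order was Pim1 (49.7 ± 1.38, SD, n = 3), Socs3 (28.0 ± 1.41), Pim2 (14.4 ± 1.2), Pim3 (12.6 ± 1.10), Socs7 (7.70 ± 0.515), Socs5 (5.70 ± 0.367), Cish (2.95 ± 0.0855), Socs6 (2.60 ± 0.214), Socs2 (1.94 ± 0.293) and Socs1 (1.45 ± 0.193). Of neighbours in this order only Pim2 and Pim3 had ranges that overlapped. In the TNFR2-deficient libraries Pim1 was again first (30.8 ± 1.79 CPM per kilobase), followed by Pim2, Socs3, Pim3, Socs1 (5.0 ± 0.175), Socs5, Socs7, Socs6, Socs2 (0.211 ± 0.0317) and Cish (0.169 ± 0.0137). There the ranges of Socs3 and Pim3, of Socs5 and Socs7, and of Socs2 and Cish overlapped. Socs1 thus stood at rank 10 of 10 in the TNFR2-positive group and at rank 5 in the TNFR2-deficient group, and Cish at ranks 7 and 10. With the length of the longest transcript in place of all exons, Socs1 stood at ranks 10 and 6 and Cish at ranks 9 and 10.

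The make-up of both families was compared within each library, with a test that cannot reach p below 0.05 at 3 libraries against 3. Socs3 held the greatest share of the summed per-length level of the 7 CIS and SOCS members, at 55.6% ± 1.98 in the TNFR2-positive and 44.4% ± 2.01 in the TNFR2-deficient libraries. Socs1 held 2.50%, 3.18% and 2.92% in the TNFR2-positive libraries and 17.7%, 17.7% and 17.5% in the TNFR2-deficient ones. Cish held 5.82%, 5.73% and 6.0% against 0.619%, 0.629% and 0.536%. The share of Socs2 was 3.85% ± 0.564 against 0.745% ± 0.128, and that of Socs7, 15.3% ± 1.25 against 13.5% ± 1.01, overlapped between the groups. Among the PIM kinases Pim1 held 64.9% ± 1.37 of the summed level in the TNFR2-positive and 53.5% ± 2.09 in the TNFR2-deficient libraries, while Pim2 and Pim3 held 18.7% and 16.4% against 24.6% and 21.9%. Each of these shares other than that of Socs7 gave p = 0.1 in an exact two-sided permutation test, the smallest that 3 libraries against 3 allow (adjusted p = 0.11 over 22 shares and ratios). The shares of a family sum to a fixed total, so they are not independent. The higher shares of Pim2 and Pim3, whose CPM did not pass the test, restate the lower level of Pim1.

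**Figure D3:**
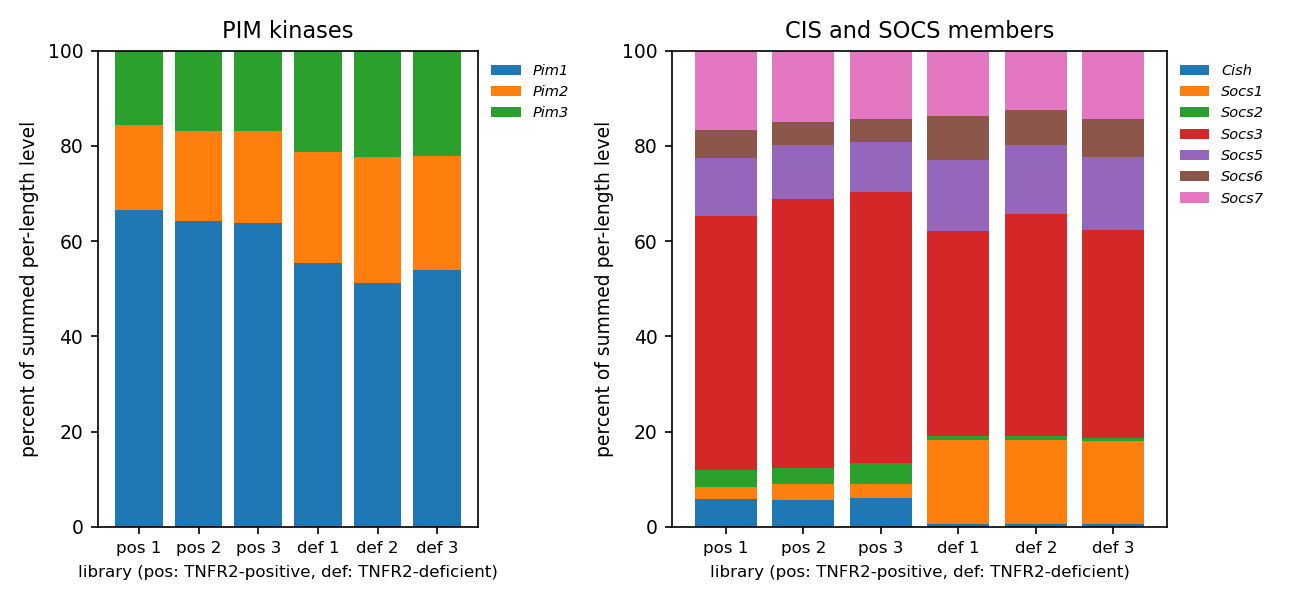
Share of each gene in the summed per-length level of its family, in percent, for each of 6 libraries. Pim1 is the largest part of the PIM bar in each library and Socs3 that of the SOCS bar, and the Socs1 part grows from about 3% in the TNFR2-positive libraries to about 18% in the TNFR2-deficient ones.

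The members were also set against Il2rb, the IL-2 receptor chain that carries STAT5 activation, whose own level was 21.2 ± 1.89 against 215.6 ± 5.10 CPM. The log2 ratio of Socs2 to Il2rb counts was -3.40 ± 0.291 in the TNFR2-deficient and -3.56 ± 0.196 in the TNFR2-positive libraries, with overlapping ranges (exact permutation p = 0.7). The difference was 0.15 on the log2 scale. The log2 ratio of Cish to Il2rb was -4.39, -4.02 and -4.45 against -3.57, -3.49 and -3.48, lower in each TNFR2-deficient library. For Socs1, Socs3, Pim1 and Pim2 the ratio to Il2rb was higher in the TNFR2-deficient libraries, by 5.15, 2.20, 2.66 and 3.34 on the log2 scale. Il2rb itself had a log2FC of -3.35. The higher ratios of Socs3 and Pim1, whose CPM were lower, and of Pim2, whose CPM did not pass, thus restate the lower level of Il2rb. Against Cd3e, a chain of the T cell receptor complex that was itself higher (172.5 ± 3.54 against 91.3 ± 2.33 CPM), the log2 ratio of Socs1 was higher by 0.88, and the differences for Cish, Socs2, Socs3, Pim1 and Pim2 were -5.05, -4.12, -2.07, -1.61 and -0.93, TNFR2-deficient minus TNFR2-positive. The lower ratio of Pim2 to Cd3e restates the higher level of Cd3e. The ranges of the groups did not overlap in any ratio other than Socs2 to Il2rb, and each of these gave the smallest exact permutation p of 0.1. With the T cell kinase gene Lck in place of Cd3e the excess of Socs1 was 0.44 on the log2 scale.

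Other genes of the pathway moved in both directions, read here beside the 34.2% of all tested genes that were lower and the 35.1% that were higher. For each list below, genes beyond the 3 non-members with the smallest adjusted p were named after their values were seen. Of 11 JAKs and STATs 6 fell (median log2FC = -0.40). Jak1, Jak2 and Stat3 fell by 1.05, 0.81 and 0.73 on the log2 scale (edgeR adjusted p = 1.52e-07, 1.85e-06 and 1.09e-06). Stat5a and Stat5b, the STATs that act on Cish, did not pass (log2FC = 0.14 and 0.07, edgeR adjusted p = 0.0792 and 0.263), at 56.4 ± 3.83 against 51.2 ± 1.61 CPM and 153.8 ± 3.99 against 146.2 ± 2.1 CPM. With the relation to exonic length removed both were called higher (log2FC = 0.42 and 0.22, edgeR adjusted p = 2.42e-05 and 0.000999), and Stat3 was at a log2FC of -0.32.

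Of 22 cytokine receptor chains tested 13 fell and 7 rose (median log2FC = -0.62). Beside Il2rb, the chains Il2ra and Il7r fell by 4.62 and 2.89 on the log2 scale (edgeR adjusted p = 1.5e-11 and 1.27e-10). Osmr, Ghr and Prlr had too few counts to test. Ifngr1, the ligand-binding chain of the interferon-gamma receptor, rose (log2FC = 0.66, edgeR adjusted p = 1.1e-06), and Il6st, the gp130 chain to which SOCS3 binds, fell by 1.14 on the log2 scale (edgeR adjusted p = 1.09e-06). With the relation to length removed Il6st was at a log2FC of -0.65.

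Of 7 ubiquitin ligase partners of the SOCS box tested 4 rose and 2 fell (median log2FC = 0.45). The small subunits rose: Nedd8, the modifier that activates cullins, Rnf7, the RING subunit, and the elongins Elob and Eloc had log2FC of 0.72, 0.53, 0.54 and 0.45. Arih2, a ligase that works with cullin 5, and Cul5 itself fell by 0.70 and 0.53 on the log2 scale. With the relation to length removed these were at -0.39 and -0.19, and Ube2f, the enzyme that conjugates NEDD8, was also called higher (log2FC = 0.49, edgeR adjusted p = 6.66e-05). Of 16 other SOCS box genes 9 rose and 3 fell (median log2FC = 0.39), with the smallest adjusted p for Asb2, Asb8 and Asb6 (log2FC = 0.95, 0.58 and 0.57, edgeR adjusted p = 1.36e-06, 1.65e-05 and 2.54e-05). Of 14 other inhibitors of JAK-STAT signalling 3 rose and 7 fell (median log2FC = -0.13). The phosphatase genes Ptpn11 and Ptprc and the ubiquitin ligase gene Cblb fell by 0.79, 0.89 and 0.89 on the log2 scale, while Ptpn6, the phosphatase SHP-1, rose with a log2FC of 0.37. With the relation to length removed 5 of these inhibitors were lower, and Ptpn11, Ptprc and Cblb had log2FC of -0.48, -0.20 and -0.44.

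**Figure D4:**
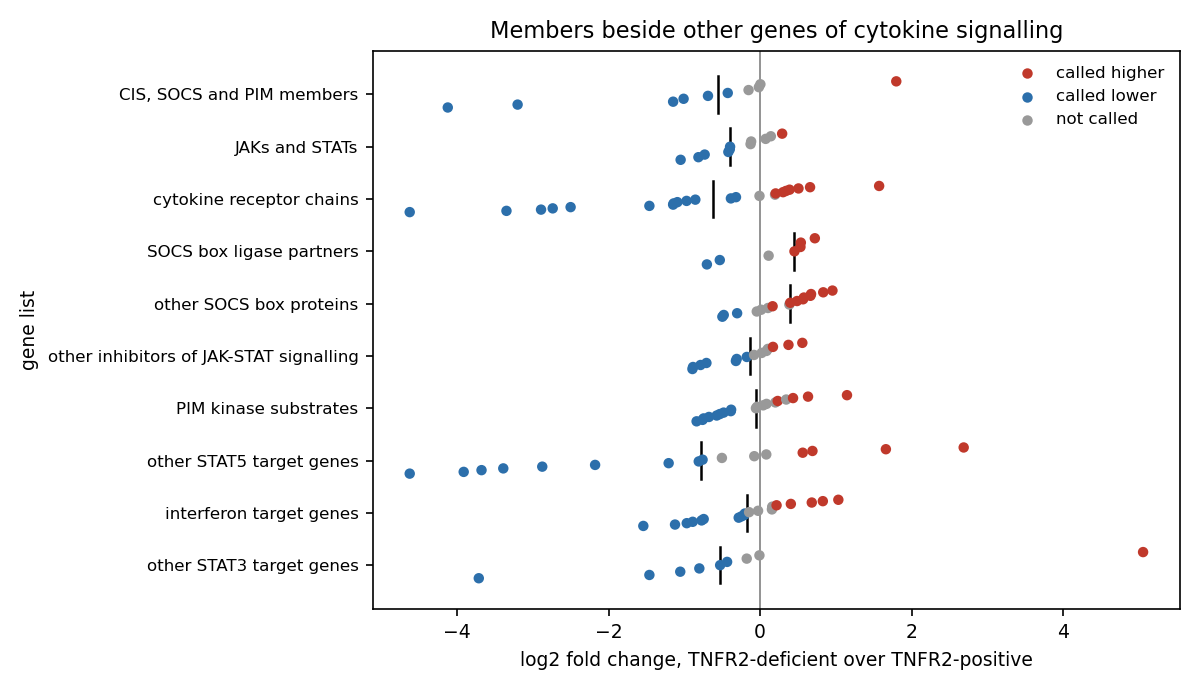
Log2 fold change of each tested gene, TNFR2-deficient over TNFR2-positive, in the members and 9 lists of the pathway, in red where called higher, blue where called lower and grey where not called, with black bars at the medians. The medians of the members and of the other STAT5 targets lie at -0.56 and -0.79, and those of the SOCS box ligase partners and other SOCS box proteins at 0.45 and 0.39.

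Other genes that STATs induce moved in both directions. Of 16 other STAT5 target genes 9 fell and 4 rose (median log2FC = -0.79). Il2ra and Tnfrsf9, a costimulatory receptor gene, fell, the latter by 3.39 on the log2 scale (edgeR adjusted p = 1e-09), while Bcl2l1, which encodes the anti-apoptotic BCL-xL, was higher (log2FC = 2.68, edgeR adjusted p = 6.44e-11). The cyclin genes Ccnd2 and Ccnd3 went in opposite directions (log2FC = -2.18 and 1.66). Several of these genes, Il2ra, Tnfrsf18 and Ikzf4, are also on the Treg marker list. Gzmb and Prf1, which fell by 2.87 and 1.21 on the log2 scale, are also on the list of NK and cytotoxic T cell markers. Of 20 interferon target genes 10 fell and 5 rose (median log2FC = -0.17), with Nlrc5, a regulator of MHC class I genes, and Gbp2 lower by 1.54 and 0.74 and the antiviral gene Rsad2 higher by 1.03 on the log2 scale. Irf1, which like Socs1 is induced by interferon-gamma, was at 148.4 ± 3.64 against 171.3 ± 4.91 CPM and fell by 0.21 on the log2 scale (edgeR adjusted p = 0.00633). Of 9 other STAT3 target genes tested 6 fell (median log2FC = -0.53). The early response gene Fos and the receptor gene Il6ra fell by 1.05 and 1.46 on the log2 scale.

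Of 19 genes of PIM kinase substrates 9 fell and 4 rose (median log2FC = -0.06). Foxo1 and Myc, transcription factors of T cell quiescence and growth, fell by 0.84 and 0.76 on the log2 scale (edgeR adjusted p = 5.31e-07 and 6.2e-07), and Foxo1 was at a log2FC of -0.47 with the relation to length removed. Eif4b, a translation initiation factor, fell by 0.53 (edgeR adjusted p = 4.84e-06). Bad, the pro-apoptotic protein that PIM kinases inactivate, rose from 3.0 ± 0.725 to 6.59 ± 0.211 CPM (log2FC = 1.15, edgeR adjusted p = 7.66e-05).

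The 3′ untranslated regions of the members, looked at after their values were seen, were counted for ATTTA, a pentamer known from short-lived mRNAs. Over 11687 tested genes with a region of at least 100 bases the median was 1.28 matches per kilobase, and 31.7% of genes had none. Pim3 and Pim1 had 5.19 and 3.66 matches per kilobase, more than 94% and 86.3% of genes. Cish and Socs3 had 2.76 and 2.71, and Socs2 had 1.37. Socs6, Pim2 and Socs5 had 2.49, 2.19 and 1.54, and Socs7, which was lower, had 0.965, under the median. Socs1 had no match in 1993 bases.

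Genes whose pattern over the 6 libraries was nearest were found for the most abundant member of each group, by Euclidean distance in centred log2 CPM over 10938 genes with a mean of at least 5 CPM. For Pim1 they were Arih2, Zfp36l2 and H2-Q7, at distances of 0.0714, 0.0854 and 0.0894 log2 units. H2-Q7 belongs to a family of near-identical genes that can share reads. For Socs3 they were Ly6c2, Gem and Apol7c (0.0868, 0.152 and 0.168), and Ly6c2 also has a close copy. For Socs7 they were Sipa1l2, Ddi2 and Trappc10 (0.0856, 0.106 and 0.111). With 2 groups far apart, such distances mostly rank genes by the size of their difference between the groups.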

How the data were processed

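The authors deposited whole-number counts per gene, without normalization, for 6 libraries. Per the labels' protocols, polyadenylated RNA was captured with oligo-dT beads and PCR-amplified libraries were made, without mention of molecular identifiers. HISAT2 2.1.0 and build GRCm39 are named, per the submitters' processing notes. The counting program, its annotation and its strand setting are, for these counts, not given in the sources used here. Counts of near-identical copies and of genes on opposite strands can therefore mix: exons of opposite-strand genes overlap those of Cish and Pim1, and those in the table had at most 5 counts per group.

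Of 32377 identifiers 30529 were matched to a symbol, and the others, at most 0.596% of counts, stayed in the tests. After filterByExpr and TMM scaling, edgeR 4.0.16 (R 4.3.3) was used for a quasi-likelihood fit (glmQLFit, glmQLFTest) with the group as the only term. Benjamini-Hochberg adjustment ran over all 17022 genes tested, and calls are at an adjusted p below 0.05. Levels are TMM-scaled CPM, sums over marker lists are CPM of the library total, and exonic lengths come from GENCODE M21 (build GRCm38), which covered 97.8% of tested genes. Standard errors were computed from the fold change and the F statistic, and 95% intervals use the moderated degrees of freedom. Promoter sequences are from RefSeq.

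The fit was tested on simulated data. It recovered 76% of 1.5-fold, 92% of 2-fold and 100% of 4-fold and 8-fold changes, with 7 false calls over 16925 genes. The simulation gave all genes the same dispersion and changed far fewer genes than were called in the data. Chi-square per gene between replicates was 2.53 to 20.8, so no library was a copy of another. TNFR2-positive library 1 differed from both its replicates (15.6 and 20.8), and the other pairs gave at most 4.77. The intervals on fold changes rest on the edgeR standard error, so like the p-values they reflect variation among the libraries only.

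The members, lists and tests were chosen with earlier results of these data known. Named genes were the members, Socs4, Tnfrsf1b, Foxp3, from each list the 3 non-members with the lowest adjusted p, and the 3 genes nearest to the most abundant member of each group. Results for some of these genes are not reported here. Alternatives were RLE, upper-quartile and no scaling, DESeq2 1.42.0, limma-voom (limma 3.58.1), other filters, a replicate block, removal of the relation to exonic length by splines with 4 degrees of freedom, and leaving out each library. A fit without marker genes of other cell types was added after the data were seen.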

Additional observations from a re-analysis of the deposited data

How the results depend on the processing

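Over 16 alternatives the calls of Cish, Socs1, Socs2, Socs3, Socs5, Socs7 and Pim1 kept their direction and their side of the threshold, with log2FC of -4.19 to -3.90, 1.69 to 1.88, -3.28 to -2.79, -1.25 to -1.10, -0.47 to -0.20, -1.08 to -0.72 and -0.75 to -0.64, and 6 members were called lower under each. With the relation to exonic length removed the members called higher numbered 2, because Socs6 was at 0.34. The cause was not tested. Values near 0 changed sign without passing the threshold. Pim2 was at 0.0319 with upper-quartile scaling and 0.0136 without a filter on low counts, and between -0.0901 and 0.0268 when a library was left out. Pim3 was at -0.0293 with RLE scaling, -0.0295 with DESeq2, -0.0114 with library size alone, -0.0235 with at least 5 CPM in 3 libraries and -0.12 with the relation to length removed, and between -0.0736 and 0.0424 when a library was left out. Socs6 was between -0.22 and -0.08 when a library was left out. With the replicate number as a block 6 members were lower and 1 higher, with log2FC of -4.12 for Cish, and 6005 genes were higher and 5851 lower, against 5983 and 5819 without it. Deviations of same-numbered libraries correlated at 0.0372, 0.054 and -0.0611 over genes, so the numbers were not taken to pair the libraries, and the block changed no call of a member. Shares of plain CPM moved 7 of 10 family shares by more than the spread between replicates, all in the same direction as per length, for example Socs6 by 7.54 in place of 3.09 percentage points.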
